A study of Mus musculus with 3 samples.

Results

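Macrophages that expressed Gpnmb and Trem2 were picked out of digested mouse liver by the transcripts in single cell barcodes. A barcode is the tag that all transcripts captured with one cell share, and a unique molecular identifier (UMI) marks each captured molecule, so that UMIs are counted in place of reads. Among barcodes with at least 200 detected genes, here called kept barcodes, those with at least 1 UMI of at least 2 of the 4 genes Gpnmb, Trem2, Atp6v0d2 and Mmp12, and with fewer than 2 of the 5 Kupffer cell genes Clec4f, Vsig4, Cd5l, Marco and Cd209f, were taken as members. They are called gated macrophages here. The gate found 644 gated macrophages among 25263 kept barcodes of 3 libraries. Because the members were selected on the UMIs of these 9 genes, the levels of the 9 genes are given as a description and support nothing.

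Gpnmb is a transmembrane glycoprotein that macrophages induce under lysosomal load, and Trem2 is a surface receptor for lipids and dead cells that signals through the adaptor Tyrobp. Atp6v0d2 is a subunit of the proton pump that acidifies lysosomes, best known from osteoclasts, and Mmp12 is the macrophage elastase, a protease of the extracellular matrix. Macrophages with these transcripts are known from fatty tissue, atherosclerotic plaques and scarred liver, where they carry lipid droplets and digest cell debris. Kupffer cells are the resident macrophages of the liver sinusoids, and circulating monocytes can replace them or become other macrophages after injury.

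Liver tissue of adult C57BL/6 mice was measured by Drop-seq, a method that captures single cells in droplets with barcoded beads. A library labelled control came from sham-operated animals with tissue taken after 1 day, and the other libraries came from livers taken 1 day and 7 days after irreversible electroporation (IRE). In IRE, short electric fields open the cell membrane for good, so that cells between the electrodes die. The labels give 8 pulses, each 50 ms long, spaced 1 s apart at 75 V. No genotype or transgene was named. A punch of 4 mm was taken from the treated area, or from the matching uninjured area of control livers, and 3 livers were pooled for each library. With 1 pooled library per condition no test across animals was possible. Intervals in parentheses are at the 95% level, exact Poisson for levels, exact Clopper-Pearson for shares and conditional binomial for ratios, and they cover counting error only. Levels are given in CPM, the UMIs of a gene per 1000000 UMIs of the same group of barcodes, and a UMI is counted once however often its molecule was copied by PCR. A gene was called higher or lower when the ratio of its levels was at or past 2-fold, among genes with at least 50 UMIs on both sides together.

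The libraries held 12466 to 18161 deposited barcodes with 4580021 to 10032574 UMIs, and 5624 to 10386 kept barcodes with a median of 456.5 to 595 UMIs, where the labels estimate 1000 cells behind each library. Several transcripts stood apart between the libraries in a way that goes against the labels. The library labelled control held the fibrous collagen transcripts Col1a1 at 232 CPM and Col3a1 at 700.4 CPM, whereas Col1a1 was at 2.78 in the library labelled 1 day and at 2.62 in the library labelled 7 days. The library labelled 1 day held the hepatocyte transcript Alb at 11571 CPM, against 532.8 in the library labelled control and 107.9 in the library labelled 7 days, and 34.9% of its kept barcodes carried at least 2 Kupffer genes and fewer than 2 genes of the Gpnmb gate. That share was 15.9% in the library labelled control and 3.43% in the library labelled 7 days. The library labelled 7 days held the neutrophil transcript S100a8 at 19867 CPM, against 1830 and 287.5 in the libraries labelled control and 1 day. Whether labels were exchanged was not tested, so each library is named below by its label and no direction over time is drawn. The libraries also shared barcodes. The libraries labelled control and 1 day had 68 kept barcodes in common, those labelled control and 7 days had 44, and those labelled 1 day and 7 days had 149. Of the gated macrophages, 9, 1 and 1 in the libraries labelled control, 1 day and 7 days had a barcode that was also kept in another library.

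Most gated macrophages lay in the library labelled control. It held 581 among 10386 kept barcodes, a share of 5.59% (5.16 to 6.05). The library labelled 1 day held 2 of 9253 (0.0216%, 0.00262 to 0.0781) and the library labelled 7 days held 61 of 5624 (1.08%, 0.831 to 1.39). The 3 intervals did not overlap, but they carry no error between animals. Gated macrophages had a median of 1041 UMIs in the library labelled control and 775 in the library labelled 7 days. These were above the medians of all kept barcodes, 595 and 456.5. In the library labelled 1 day that median was 509, so depth over all kept barcodes did not follow the order of the shares. After each kept barcode with at least 300 UMIs had been thinned to 300 UMIs, which left out 209, 298 and 545 barcodes in the libraries labelled control, 1 day and 7 days, the shares were 2.75% (2.44 to 3.09), 0.0112% (0.000283 to 0.0622) and 0.335% (0.195 to 0.535), in the same order. Without barcodes that also occurred in another library the shares were 5.56%, 0.0111% and 1.10%. The distance between the libraries depended on the number of markers asked for. With 1 marker the shares were 15.8%, 0.584% and 10.3% in the libraries labelled control, 1 day and 7 days, and with 3 markers they were 2.57%, 0% and 0.0178%, the last from 1 barcode. The plot of member shares shows the same order of libraries with and without thinning.

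**Figure D1:**
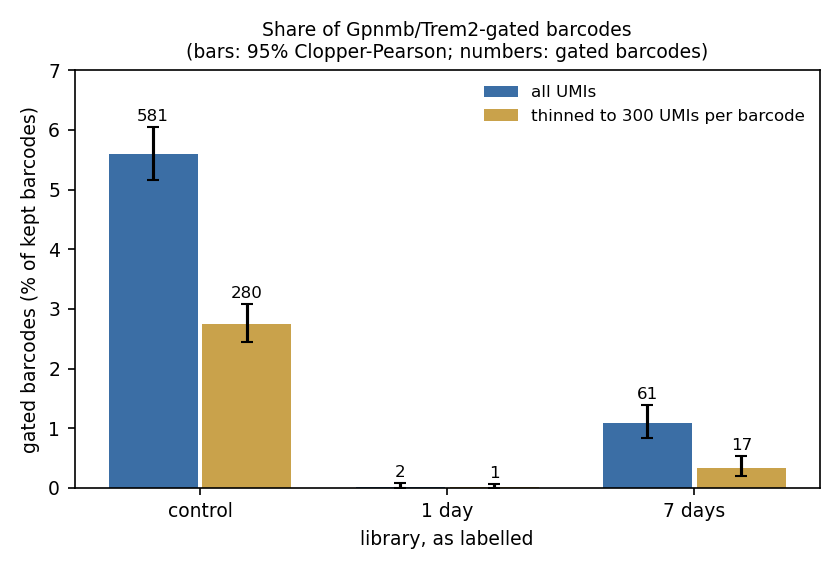
Share of kept barcodes (percent, vertical axis from 0) that passed the Gpnmb and Trem2 gate in each library as labelled, from all UMIs and after thinning each barcode to 300 UMIs, with 95% Clopper-Pearson intervals and the number of gated barcodes above each bar. The library labelled control stands at 5.59% and 2.75%, the library labelled 7 days at 1.08% and 0.335%, and the library labelled 1 day near 0.

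Free RNA in the suspension can put UMIs of a gene into barcodes that do not express it, so the gate was also read in barcodes of cell types that should lack these genes. In the library labelled control, 3 of 267 barcodes with at least 3 T cell markers passed it (1.12%, 0.232 to 3.25, median 814 UMIs), as did 2 of 141 with B cell markers (1.42%, 0.172 to 5.03, median 612 UMIs) and 26 of 1458 with endothelial markers (1.78%, 1.17 to 2.60, median 596.5 UMIs). With NK cell markers 3 of 249 passed it (1.20%, 0.249 to 3.48, median 667 UMIs). With mesenchymal markers 13 of 480 passed it (2.71%, 1.45 to 4.59, median 924.5 UMIs). These shares were below the 5.59% of all kept barcodes of that library, whose median was 595 UMIs. Of 624 barcodes with at least 3 neutrophil markers, 49 passed it (7.85%, 5.87 to 10.3, median 754 UMIs). In the library labelled 7 days, 48 of 3955 barcodes with at least 3 neutrophil markers passed it (1.21%, 0.896 to 1.61, median 489 UMIs). These barcodes make up most of that library and held 48 of its 61 gated macrophages, so they give no background for its share. Its barcodes with T cell and endothelial markers were few, and 0 of 82 and 0 of 77 passed the gate, which allows shares of up to 4.40% and 4.68%, above its own 1.08%. Of the barcodes labelled 1 day, 0 of 3810 with endothelial markers passed it, which allows a share of up to 0.0968%, a limit above the 0.0216% of that library. The 2 gated barcodes of the library labelled 1 day held 298 and 425 UMIs, neither carried both Gpnmb and Trem2, and they are not described further.

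General macrophage genes were found in most gated macrophages of the library labelled control. Of its 581 gated macrophages, 564 (97.1%) carried at least 2 of 14 general macrophage markers, against 68.6% of its kept barcodes. The gated macrophages were deeper, with a median of 1041 UMIs against 595, and the part of depth was not tested. Lyz2, the lysozyme of myeloid cells, had a UMI in 558 of them (96.0%), the adaptor Tyrobp in 501 (86.2%) and the macrophage sialomucin Cd68 in 268 (46.1%). Markers of other cell types were present too. At least 2 neutrophil markers were found in 153 of the 581 (26.3%, against 17.0% of kept barcodes), at least 2 hepatocyte markers in 84 (14.5%, against 6.82%), at least 2 endothelial markers in 67 (11.5%, against 20.7%) and at least 2 mesenchymal markers in 30 (5.16%, against 6.10%). Summed over the list, neutrophil markers took 0.217% of the UMIs of gated macrophages and 0.993% of the UMIs of barcodes under 200 genes. Their part in the results below was not tested.

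In the library labelled 7 days, 58 of 61 gated macrophages (95.1%) carried at least 2 general macrophage markers, but so did 90.5% of its kept barcodes. At least 2 neutrophil markers were found in 59 of the 61 (96.7%), against 90.5% of kept barcodes. The neutrophil list took 1.78% of the UMIs of these gated macrophages, 4.38% of the UMIs of the other kept barcodes and 9.95% of the UMIs of barcodes under 200 genes. No doublet caller was run, so that a droplet with a macrophage and another cell would have been kept.

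The 4 marker genes were combined differently in the 2 libraries. Gpnmb had a UMI in 517 of the 581 gated macrophages labelled control (89.0%) and in 53 of the 61 labelled 7 days (86.9%). Trem2 was found in 453 (78.0%) and 51 (83.6%). Atp6v0d2 was found in 273 (47.0%) of the gated macrophages labelled control but in only 5 of 61 (8.20%) labelled 7 days, and Mmp12 in 280 (48.2%) and 14 (23.0%). Gpnmb together with Trem2 accounted for 397 of the 581 (68.3%) and for 43 of the 61 (70.5%), whereas Atp6v0d2 together with Mmp12 occurred in 129 (22.2%) and in 0 of the 61. At the level of summed UMIs, Gpnmb was at 3107 CPM (2980 to 3238) in the gated macrophages labelled control and at 1778 in those labelled 7 days. Trem2 was at 1238 (1158 to 1322) and 1212, Mmp12 at 2093 (1989 to 2201) and 528, and Atp6v0d2 at 676.4 (617.8 to 739.0) and 117. Trem2 thus lay at a like level in both, and the other markers were higher in the library labelled control, all within a gate that these genes define.

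The threshold of the gate cut through a range of marker numbers. Among kept barcodes of the library labelled control with fewer than 2 Kupffer genes, 7016 had none of the 4 markers, 1056 had 1 and lay just outside the gate, 314 had 2 and lay just inside, 173 had 3 and 94 had all 4. Their median UMIs were 535, 666, 867.5, 1151 and 1743, so that depth rose with the number of markers. In the library labelled 7 days, 521 barcodes had 1 marker, 60 had 2, 1 had 3 and 0 had 4. On the side of the Kupffer genes, 414 of the 581 gated macrophages labelled control had none of the 5, 167 had 1, and another 44 barcodes just outside the gate had 2.

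Lysosome and lipid-associated genes, summed over their lists, stood higher with each further marker. The 35 genes of a lysosome list took 1.97% of UMIs in barcodes with 1 marker, 4.26% (4.19 to 4.33) with 2, 5.57% (5.47 to 5.66) with 3 and 6.44% (6.33 to 6.55) with 4. The 20 genes of a list for lipid-associated macrophages took 2.87%, 6.27%, 7.61% and 8.37%. Both lists hold Ctsl, Ctsb, Ctsd, Cd63 and Lipa. Haem and iron genes, led by the ferritin chains Ftl1 and Fth1, took 1.29%, 3.06%, 4.03% and 4.62%. The 8 genes of an MHC class II list went the other way, with 0.805%, 0.710%, 0.438% and 0.318%. MHC class II molecules present antigen to T cells, and the list also holds Cd86 and Ciita, which are not such molecules. The lists showed the same order among barcodes with at least 1000 UMIs, except that MHC class II stood at 0.691% with 1 marker and at 0.744% with 2. Barcodes were grouped here by the same genes that set the gate, and the lists were chosen with earlier results of these data known. Values by marker number, with or without the limit on UMIs, are therefore a description.

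**Figure D2:**
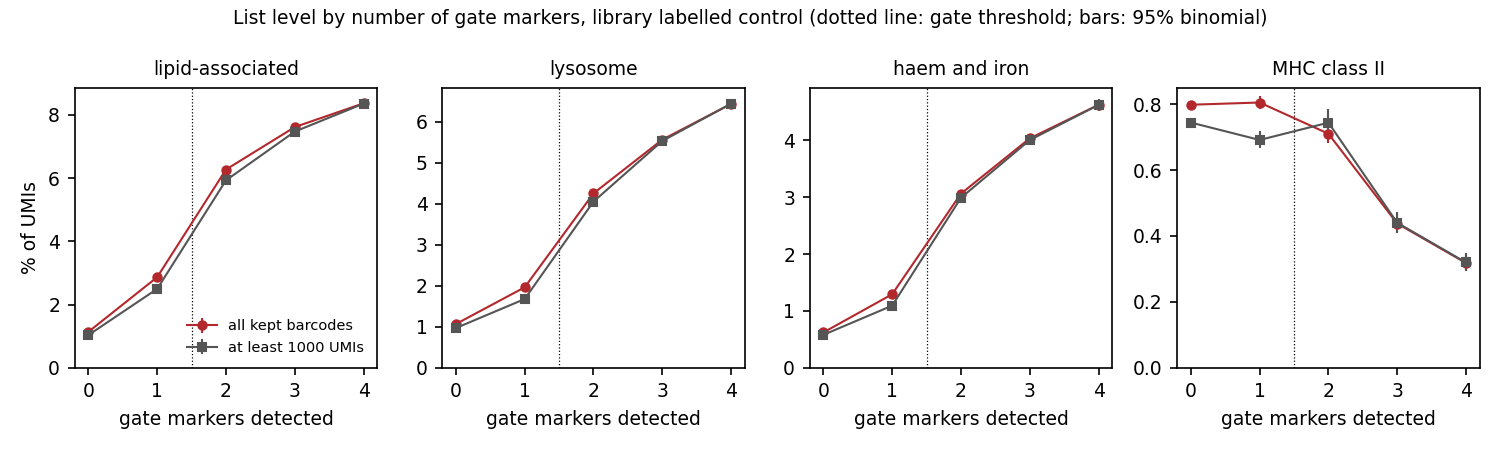
Percent of UMIs taken by the lipid-associated, lysosome, haem and iron, and MHC class II lists (vertical axes from 0) in barcodes of the library labelled control with 0 to 4 gate markers (horizontal axis), for all kept barcodes with fewer than 2 Kupffer genes and for those with at least 1000 UMIs, with 95% binomial intervals. The dotted line is the gate threshold, and the groups are set by the gate genes themselves. Lysosome genes climb to 6.44% and MHC class II genes fall to 0.318% with 4 markers.

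Single genes showed, as a description too, how far apart the ends of this range lay. Ctsl, the protease cathepsin L, was at 613 CPM with 1 marker, 2248 with 2, 4827 with 3 and 10810 with 4. Spp1, the secreted matrix protein osteopontin, was at 451, 1267, 3125 and 5718. Mfge8, which bridges dying cells to phagocytes, was at 69, 225, 287 and 1071, and Ctsk, the collagen-cleaving cathepsin K known from osteoclasts, at 25, 48, 45 and 268. Both were thus highest in the 94 barcodes with all 4 markers. Apoe, the lipid carrier apolipoprotein E, did not follow this order, with 17912, 35105, 32138 and 20591. The monocyte receptor Ccr2 went down from 515 to 241, 126 and 59, and the monocyte surface gene Ly6c2 from 378 to 124, 99 and 37. S100a8 went down as well, from 1840 to 1349, 853 and 407.

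Gated macrophages labelled control were then set beside 1651 Kupffer gate barcodes of the same library, which had at least 2 of the 5 Kupffer genes and fewer than 2 of the 4 markers. Of 5544 genes compared, without the 9 gate genes, 269 were higher (4.85%) and 673 were lower (12.1%) in gated macrophages. The median log2 ratio over all compared genes was -0.14. Of 14 general macrophage genes 2 were higher (Cd68 and Lyz2) and 3 lower (Emr1, Csf1r and C1qa). The rule sorted barcodes by the transcripts of these same cells into groups that exclude each other, so the counts are a description. Beside each other, the groups had 12.9% and 14.9% mitochondrial UMIs and a median of 1041 and 821 UMIs per barcode.

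Genes of the lipid-associated list were higher in gated macrophages. All 19 compared genes of its 20 were higher, with a median log2 ratio of 2.63. The list was chosen with earlier results of these data known. Its genes Cd63, Ctsl, Ctsb, Ctsd and Lipa also stand in the lysosome list. Fabp5, which carries fatty acids in the cytoplasm, was at 2362 CPM (2251 to 2476) in gated macrophages and at 87.1 in Kupffer gate barcodes, a ratio of 27.1 (22.9 to 32.3). Spp1 was at 2986 (2861 to 3114) and 129, a ratio of 23.2 (20.1 to 26.8). Plin2, the coat protein of lipid droplets, was at 1331 and 193, a ratio of 6.91 (6.08 to 7.86). Cd36, a receptor that takes up oxidized lipids, was at 1176 and 190, a ratio of 6.18 (5.43 to 7.05), and Lpl, the lipase that frees fatty acids from lipoproteins, was at 3056 and 787, a ratio of 3.88 (3.62 to 4.16). The galectin Lgals3 was 9.16-fold higher (8.53 to 9.85). Apoe, abundant in both, was at 30451 and 12875, a ratio of 2.37 (2.32 to 2.41). Among genes that export or process cholesterol the picture was divided, with 3 of 16 compared higher (Abca1, Nceh1 and Pla2g7) and 4 lower, among them Nr1h3, the nuclear receptor LXR alpha, and the scavenger receptor Msr1.

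Of 35 lysosome genes, all of which were compared, 12 were higher and 2 lower, with a median log2 ratio of 0.64. The lysosomal membrane protein Cd63 was at 1950 CPM (1850 to 2055) and 146, a ratio of 13.3 (11.7 to 15.3). Ctsl was at 5248 (5082 to 5417) and 505, a ratio of 10.4 (9.64 to 11.2). Ctsk had few UMIs, with 75 in gated macrophages and 16 in Kupffer gate barcodes, a ratio of 10.8 (6.27 to 19.9). Psap, the precursor of proteins that help degrade sphingolipids, was 4.33-fold higher (4.13 to 4.53), the aspartyl protease Ctsd 3.77-fold (3.60 to 3.94) and Lipa, the acid lipase of lysosomes, 2.11-fold (1.91 to 2.33). Ctss, another cathepsin, stayed within 2-fold at 1.78 (1.71 to 1.85), and Ctsc was among the lower genes. Of 16 subunits of the lysosomal proton pump, the V-ATPase, only Atp6v1a (2.20-fold, 1.91 to 2.54) and Atp6v1c1 (3.19-fold, 2.43 to 4.20) were past 2-fold and 0 were lower, with a median log2 ratio of 0.45. The regulators of lysosomal genes of the MiT family and their partners had 1 of 8 compared higher, the folliculin partner Fnip2, and 1 lower, Tfec.

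Stretches of the 250 bases before the start of some of these genes are shown because lysosomal genes are known to carry the short letters CACGTG, on which MiT family factors can bind. They come from RefSeq on build GRCm38.p6 and run 5′ to 3′ on the strand of the gene, with matches in capitals, and both strands were searched in the 250 bases before each start. Ctsd lies on the minus strand at chr7:142387905-142388077, Lamp1, a lysosomal membrane protein, on the plus strand at chr8:13159081-13159160, and Ctsl on the minus strand at chr13:64370691-64370770. Mmp12 on the plus strand at chr9:7347276-7347355 is shown as a marker gene with a match to TCATGTG, called the M-box, and to TGACTCA, on which AP-1 factors can bind, both matched on the opposite strand.
Ctsd: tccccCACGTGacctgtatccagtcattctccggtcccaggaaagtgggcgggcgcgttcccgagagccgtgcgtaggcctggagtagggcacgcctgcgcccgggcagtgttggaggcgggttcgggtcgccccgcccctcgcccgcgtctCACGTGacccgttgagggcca
Lamp1: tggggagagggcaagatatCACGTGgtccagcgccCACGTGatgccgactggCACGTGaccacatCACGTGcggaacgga
Ctsl: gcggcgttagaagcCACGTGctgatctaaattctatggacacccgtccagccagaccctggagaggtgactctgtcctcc
Mmp12: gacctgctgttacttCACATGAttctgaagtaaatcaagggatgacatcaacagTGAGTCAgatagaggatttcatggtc

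CACGTG was found before 8 of 27 lysosome genes with an entry (29.6%), before 6.86% of all 27025 genes of the table, and before 10.3% of the 204 higher genes with an entry, close to the 10.7% of the 4255 compared genes with an entry. The longer TCACGTG, which contains it, was found before 25.9% of the lysosome genes and 3.58% of all genes. TGACTCA was found before 21 of the 204 higher genes (10.3%), against 3.97% of the compared genes and 5.16% of all genes. TCATGTG was found before 5.39% of the higher genes, 2.42% of the compared genes and 3.72% of all genes. Of the 3 marker genes with an entry, only Mmp12 held a match to TCATGTG or TGACTCA, and 0 held CACGTG. These matches describe letters and were not tested.

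Other genes set the gated macrophages apart from Kupffer gate barcodes by the size of the ratio. Npy, the neuropeptide Y precursor, had 64 UMIs against 1, a ratio of 148.1 (25.6 to 5941). Syngr1, a synaptogyrin of vesicle membranes, had 120 UMIs against 6, a ratio of 46.3 (20.7 to 128.7). Adam8, a surface metalloprotease, was 19.0-fold higher (12.0 to 31.4), coagulation factor F7 18.8-fold (11.6 to 32.0) and Mfge8 18.0-fold (13.1 to 25.4). The other genes among the 10 with the largest ratios were Emp1, Fam20c, Cd63, Fabp5 and Spp1. Npy was found in 45 of the 581 gated macrophages (7.75%) and Syngr1 in 90 (15.5%), so that most of them had no UMI of either.

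Genes that handle dying cells were divided. Of 18 compared, Mfge8, Gas6 (2.56-fold, 1.85 to 3.55), the scavenger receptor Stab1 and Anxa1 (11.1-fold, 8.73 to 14.1) were higher, whereas the receptor Axl, the complement gene C1qa (0.410, 0.372 to 0.450), Elmo1 and the mannose receptor Mrc1 were lower. Among 18 compared cytokine and chemokine genes, 3 were higher, the platelet factor Pf4, at 1782 CPM against 136 (13.1-fold, 11.4 to 15.2), Ccl9 (6.67-fold, 5.25 to 8.54) and the receptor Ccr1. Another 5 were lower, among them Il1b (0.301, 0.198 to 0.441), Il18 and Ccl24. The chains of ferritin that store iron were higher, Fth1 3.30-fold (3.20 to 3.40) and Ftl1 2.58-fold (2.53 to 2.64), whereas Slc40a1, the iron exporter ferroportin, was lower at 229 against 1241 CPM (0.185, 0.157 to 0.216). Glycolysis and low-oxygen genes had 3 of 13 higher (Aldoa, Pgk1 and Mif) and 1 lower (Hk2), and respiratory chain genes 0 of 18 higher and 1 lower (Cox5a). None of 15 compared division genes was past 2-fold, and Mki67 was at a ratio of 0.619 (0.501 to 0.758).

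Kupffer identity and interferon-induced genes were lower. All 13 compared genes of a list of 14 further Kupffer genes were lower, with a median log2 ratio of -3.73, a direction that gates excluding each other fix. Timd4, a receptor for phosphatidylserine, was at 8.28 CPM (6 UMIs) against 300.6, a ratio of 0.0276 (0.0101 to 0.0604). The haemoglobin receptor Cd163 was at a ratio of 0.0338 (0.0168 to 0.0608), complement C6 at 0.0126 (0.00407 to 0.0295) and the adhesion molecule Vcam1 at 0.0415 (0.0249 to 0.0650). The remaining genes among the 10 smallest ratios were C2, Gbp2b, Adrb1, Tmem26, Kcnj16 and Adgb. All 12 genes of an interferon-induced list were lower, with a median log2 ratio of -1.53, such as the antiviral regulator Irf7 (0.139, 0.0929 to 0.201) and Ifit3 (0.226, 0.137 to 0.354). Of 8 genes of the MHC class II list 4 were lower, Cd86 among them. Cd74 was lower at 1027 against 2122 CPM (0.484, 0.447 to 0.524), and H2-Ab1 stood just within 2-fold at 0.502 (0.472 to 0.533). Hepatocyte markers were lower too, 8 of 10, and took 0.137% of UMIs in gated macrophages and 0.267% in Kupffer gate barcodes. Endothelial markers were lower in 7 of 10 and higher in 1, with a median log2 ratio of -1.21, and took 0.0622% and 0.115% of UMIs. Their part in the other values was not tested.

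**Figure D3:**
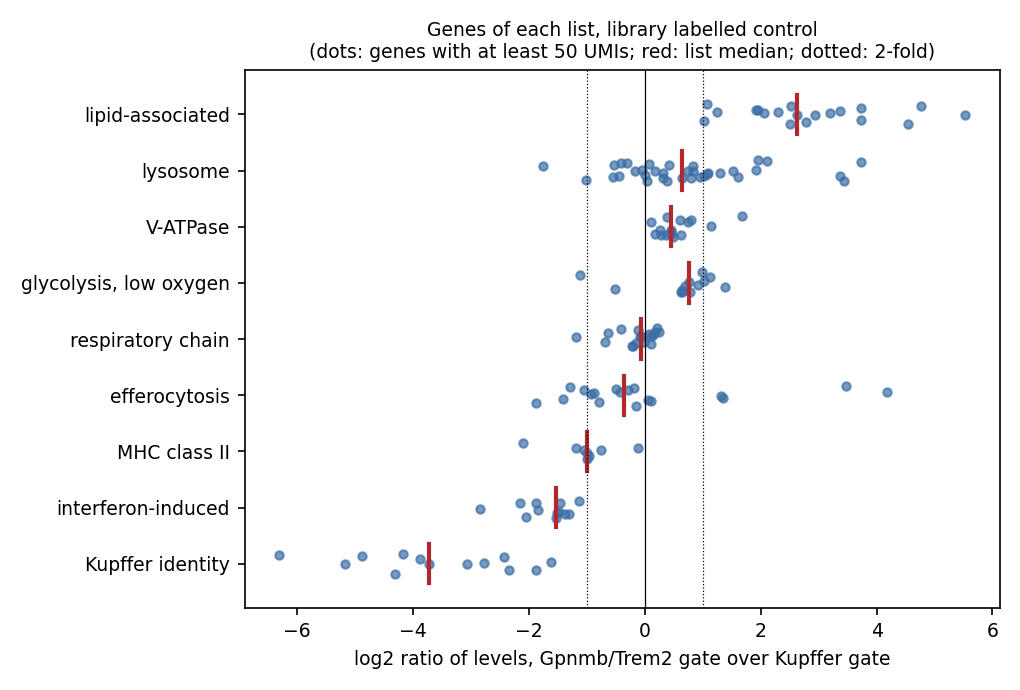
Log2 ratio of levels, gated macrophages over Kupffer gate barcodes of the library labelled control (horizontal axis), for genes of 9 lists with at least 50 UMIs (dots), with the list median in red and 2-fold as dotted lines. The medians run from 2.63 for lipid-associated genes and 0.64 for lysosome genes to -1.53 for interferon-induced and -3.73 for Kupffer identity genes.

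A second comparison within the library labelled control set the gated macrophages beside 1639 monocyte gate barcodes, which had at least 2 of Ly6c2, Ccr2, Plac8 and Chi3l3 and fewer than 2 genes of each other gate. This comparison was added after the data had been seen. Of 4639 genes 387 were higher (8.34%) and 469 were lower (10.1%). Gated macrophages and monocyte gate barcodes had 12.9% and 21.4% mitochondrial UMIs and a median of 1041 and 597 UMIs per barcode. Markers of other cell types were lower in gated macrophages, all 5 compared of T cells, all 3 of NK cells, all 4 of erythroid cells and both of dendritic cells, and their part in the other values was not tested. Of 34 compared lysosome genes 25 were higher and 0 lower (median log2 ratio 1.53, against -0.07 over all genes compared). Ctsl was 21.3-fold higher (18.9 to 24.1), Ctsd 11.7-fold (10.8 to 12.7) and Ctsb 7.24-fold (6.82 to 7.69). In the lipid-associated list 17 of 19 were higher and 0 lower, with Fabp5 at 23.7-fold (19.6 to 28.7), Spp1 at 23.0-fold (19.6 to 27.2) and Cd36 at 16.1-fold (12.9 to 20.2). Pf4 had the largest ratio, 33.5 (26.0 to 43.7), and among the 10 largest were also Npy, F7, Mfge8, Cd63 and Rnf128, a ubiquitin ligase.

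General macrophage and phagocytosis genes were also higher than in monocyte gate barcodes. The complement genes C1qa (4.05-fold, 3.45 to 4.78) and C1qb (5.34-fold, 4.86 to 5.88) and the receptor Mertk were among 10 of 19 compared efferocytosis genes that were higher. Of 8 compared haem and iron genes 7 were higher, Slc40a1 5.30-fold (3.86 to 7.38) among them, so that ferroportin lay between the levels of monocyte and Kupffer gate barcodes. Igf1, a growth factor, was 6.38-fold higher (5.05 to 8.13). Lower were 9 of 11 interferon-induced genes and 6 of 12 further monocyte genes, such as the matrix proteoglycan Vcan and Ms4a4c. The monocyte gate selected barcodes on monocyte genes, which favours lower monocyte genes in gated macrophages, so that count is a description. The smallest ratios included neutrophil granule genes (Camp, Ltf and Ngp) and immunoglobulin genes (Ighg3, with 0 UMIs against 170, at least 34.2-fold lower with a floor of 3 counts for the gated macrophages). The MHC class II list had 1 of 8 genes lower, Ciita, and H2-Ab1 was at 0.563 (0.528 to 0.599). The plot of levels in the 3 gates shows the lysosomal and lipid genes highest in gated macrophages and Kupffer and monocyte genes low in them.

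**Figure D4:**
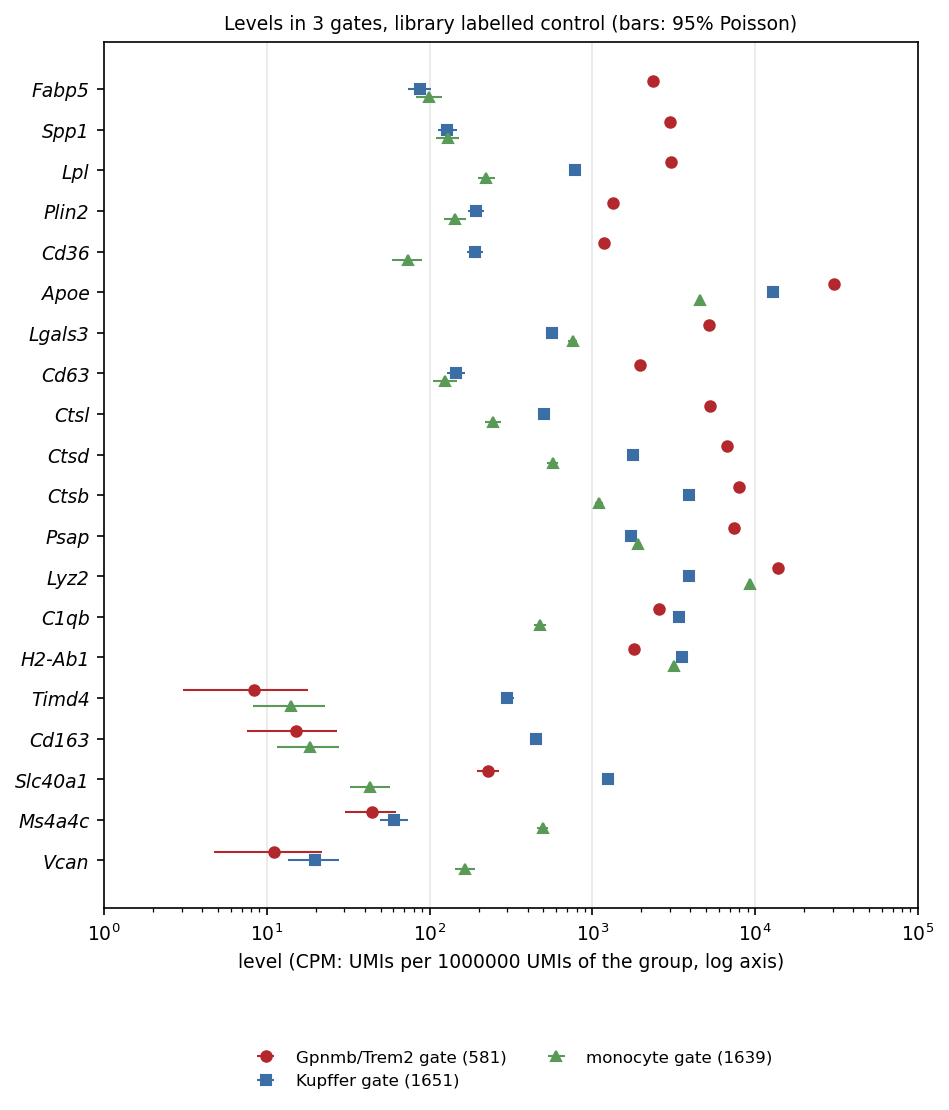
Level of 20 genes (CPM, log axis) in gated macrophages, Kupffer gate and monocyte gate barcodes of the library labelled control, with 95% Poisson intervals. Fabp5 stands at 2362 in gated macrophages and at 87.1 and 99.8 in the Kupffer and monocyte gates, whereas Timd4 and Cd163 stand at 8.28 and 15.2 in gated macrophages and at 300.6 and 449.6 in the Kupffer gate.

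Barcodes that passed both gates were few. The library labelled control held 82 with at least 2 of the 4 markers and at least 2 Kupffer genes, with a median of 1832 UMIs. They took 0.762% of their UMIs in the 4 marker genes, against 0.711% in gated macrophages, and 0.426% in Kupffer gate genes, against 1.05% in Kupffer gate barcodes. Lysosome genes took 5.07% (4.97 to 5.17) of their UMIs and lipid-associated genes 6.23% (6.12 to 6.34), near the 5.22% and 7.22% of gated macrophages and above the 2.51% and 2.22% of Kupffer gate barcodes. Whether these barcodes held 1 cell or more was not tested.

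The 61 gated macrophages labelled 7 days held 51167 UMIs in all, so that only 671 genes could be compared with the 193 Kupffer gate barcodes of that library. Of these 46 were higher (6.86%) and 70 lower (10.4%). Fabp5 was at 3029 CPM against 107.4, a ratio of 28.2 (16.8 to 50.6), and Spp1 at 12059 against 933, a ratio of 12.9 (10.7 to 15.7). Next in size were the galectin Lgals1 (8.35-fold, 5.90 to 12.0) and the calcium-binding S100a4 (5.28-fold, 3.37 to 8.40). In the lipid-associated list 7 of 15 compared genes were higher and 2 lower, and in the lysosome list 3 of 23 were higher (Cd63, Psap and Cstb) and 3 lower (Ctsc, Lipa and Laptm4a). Arg1, arginase, which consumes arginine in wound macrophages, was 3.71-fold higher (3.09 to 4.46). Of 13 compared general macrophage genes 1 was higher (Lyz2) and 4 were lower (Csf1r, C1qa, C1qb and C1qc). Of 8 compared genes that clear dying cells 0 were higher and 4 were lower (the same C1q genes and Mrc1). Lower were 9 of 10 further Kupffer genes, a direction that gates excluding each other fix, with the lectin Fcna (1 UMI against 182, a ratio of 0.0160, 0.000403 to 0.0903) and Slc40a1 (2 against 137, 0.0425, 0.00510 to 0.157) among the smallest. The chemokines Cxcl13 (3 against 238) and Ccl24 (3 against 104) and the adhesion molecule Vcam1 (1 against 87) were among them too.

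In the same library the gated macrophages were set beside 765 wound macrophage gate barcodes, which had at least 2 of Arg1, Ccl2 and Ccl7, fewer than 2 of the 4 markers, of the Kupffer genes and of the monocyte genes. Of 1534 genes 56 were higher (3.65%) and 150 were lower (9.78%). In the MHC class II list, 4 of 5 compared genes were higher and Cd86 was lower, the latter on 2 UMIs with an interval that held 1 (0.294, 0.0347 to 1.11). H2-Aa was at 1153 CPM against 270.8, a ratio of 4.26 (3.06 to 5.87), H2-Ab1 at a ratio of 2.40 (1.74 to 3.25) and Cd74 at 2.11 (1.44 to 3.01). C1qa (4.03-fold, 2.39 to 6.60), Fabp5 (3.03-fold, 2.51 to 3.65), Lpl (2.54-fold, 1.65 to 3.84) and Apoe (2.25-fold, 2.04 to 2.47) were higher, whereas Spp1 (1.47-fold, 1.34 to 1.60) and Ctsd (1.22-fold, 1.03 to 1.43) stayed within 2-fold. Of 11 compared genes of an early wound list 8 were lower, among them Cxcl2, Thbs1, Vegfa and Slpi. The wound gate selected barcodes on wound genes, which favours this direction, so the count is a description. Lower too were 6 of 16 glycolysis and low-oxygen genes, such as the glucose transporter Slc2a1 (1 UMI against 91, a ratio of 0.0920, 0.00230 to 0.526). Inhba, Ppbp, Ccl24 and Cxcl10 were also among the 10 smallest ratios, each with 1 to 3 UMIs in gated macrophages. The groups overlapped in kind, since 32 of the 61 gated macrophages (52.5%) carried at least 2 of Arg1, Ccl2 and Ccl7, against 16 of 581 (2.75%) in the library labelled control.

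Between the libraries, the gated macrophages labelled 7 days differed from those labelled control at 257 higher (11.8%) and 342 lower (15.7%) of 2177 compared genes. With at least 20 UMIs per gene in place of 50 the larger side turned, with 786 higher and 558 lower. Mitochondrial UMIs were 3.17% in the gated macrophages labelled 7 days and 12.9% in those labelled control, and their part in the differences was not tested. With 1 pooled library each, library, animals and condition cannot be told apart, and library-wide transcripts moved in the same direction. Chemokines and wound genes were higher. Ccl2 was at 1720 CPM against 42.8, a ratio of 40.2 (26.4 to 62.6), Ccl7 at 1309 against 20.7, a ratio of 63.2 (35.8 to 119.2), and Arg1 at 5277 against 418, a ratio of 12.6 (10.7 to 14.9). Cxcl3 (158.6-fold, 64.1 to 507.3), Thbs1 (50.7-fold, 26.3 to 105.7), Cxcl2 (30.5-fold, 21.7 to 43.4), Slpi (25.3-fold, 15.6 to 41.7) and Il1b (19.4-fold, 11.8 to 32.1) were among the 10 largest. All 7 compared genes of the early wound list were higher and 10 of 13 compared cytokine genes. Of these, Cxcl2 was at 2150 CPM in the gated macrophages labelled 7 days but at 11981 in barcodes under 200 genes of that library, and Thbs1 at 840 and 2165, so that both were more abundant in the barcodes with little RNA. Ccl2 was at 654 and Arg1 at 2859 in those barcodes, below the gated macrophages, but in the other kept barcodes of that library Ccl2 was at 1613 and Arg1 at 5598, near or above the gated macrophages. Over all kept barcodes Arg1 was at 5593 CPM in the library labelled 7 days and at 130.8 CPM in the library labelled control. Kupffer gate barcodes of the library labelled 7 days held Il1b at 751.5 CPM, near the 801.3 CPM of its gated macrophages, and Cxcl2 at 1771 CPM. Ccl2, Ccl7, Arg1, Cxcl3, Thbs1 and Slpi were past 2-fold higher in gated macrophages than in those barcodes. S100a8 was 8.50-fold higher (7.51 to 9.62), with all 6 compared neutrophil markers higher. The part of free RNA in these ratios was not tested.

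Spp1 was higher as well in the gated macrophages labelled 7 days, at 12059 against 2986 CPM (4.04-fold, 3.69 to 4.42). Kupffer gate barcodes differed in the same direction, with Spp1 at 932.7 CPM in the library labelled 7 days and at 128.8 CPM in that labelled control. In the gated macrophages 7 of 9 compared glycolysis and low-oxygen genes were higher, such as Gapdh (2.71-fold, 2.10 to 3.45) and the pyruvate kinase Pkm (2.62-fold, 2.02 to 3.36). Hmox1, which breaks down haem, was 5.48-fold higher (3.72 to 7.92). Other genes lay within 2-fold. Fabp5 was at a ratio of 1.28 (1.08 to 1.51), Plin2 at 1.06 (0.821 to 1.34), Ctsb at 0.936 (0.842 to 1.04), H2-Aa at 0.992 (0.749 to 1.29) and Il7r at 0.889 (0.478 to 1.52).

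Lower in the gated macrophages labelled 7 days were 7 of 18 compared lipid-associated genes (1 was higher, Spp1) and 7 of 32 lysosome genes (2 were higher, Cd68 and Cstb), beside 15.7% lower and 11.8% higher over all compared genes, so that the lysosome count was near the share of all genes. Lpl was at 606 against 3056 CPM, a ratio of 0.198 (0.134 to 0.282), Ctsl at 1427 against 5248 (0.272, 0.213 to 0.343), Lipa at a ratio of 0.289 (0.164 to 0.472), Cd36 at 0.299 (0.176 to 0.476) and Apoe at 10515 against 30451 (0.345, 0.316 to 0.376). Ctsd lay at the 2-fold limit without passing it, at 0.505 (0.431 to 0.588). Of 11 compared cholesterol genes 3 were lower (Abca1, Acp5 and Pltp) and 2 higher (Apoc2 and Msr1), and of 14 compared genes that clear dying cells 5 were lower and 1 higher. Abca1, the cholesterol exporter, had 1 UMI against 217, a ratio of 0.0653 (0.00164 to 0.367). Mfge8 had 0 UMIs against 335 and the phospholipid transfer protein Pltp 0 against 329, at least 7.89-fold and 7.75-fold lower with a floor of 3 counts. The division genes Mki67 (1 UMI against 120), Top2a and Stmn1 were lower among 9 compared. As list levels, lysosome genes took 4.02% of UMIs in the gated macrophages labelled 7 days against 5.22%, lipid-associated genes 5.31% against 7.22%, MHC class II genes 0.373% against 0.525%, and cytokine genes 1.80% against 0.416%. The cytokine list stood higher still in the rest of the library labelled 7 days, at 2.16% in other kept barcodes and 2.95% in barcodes under 200 genes. In the other kept barcodes of the libraries labelled 7 days and control, lysosome genes took 2.32% and 1.61% and lipid-associated genes 2.47% and 1.72%, so that both lists were higher in gated macrophages than in the rest of either library. In the library labelled 7 days that rest was mostly barcodes with neutrophil markers. Against its wound gate barcodes 2 of 28 lysosome and 3 of 16 lipid-associated genes were higher and 0 lower, beside 3.65% higher over all genes. Against its Kupffer gate barcodes 3 of 23 lysosome genes were higher and 3 lower, and 7 of 15 lipid-associated genes were higher and 2 lower. Collagen transcripts were lower too, with Col3a1 at 0 UMIs against 176, beside its level of 5.23 and 700.4 CPM over all kept barcodes of the libraries labelled 7 days and control.

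**Figure D5:**
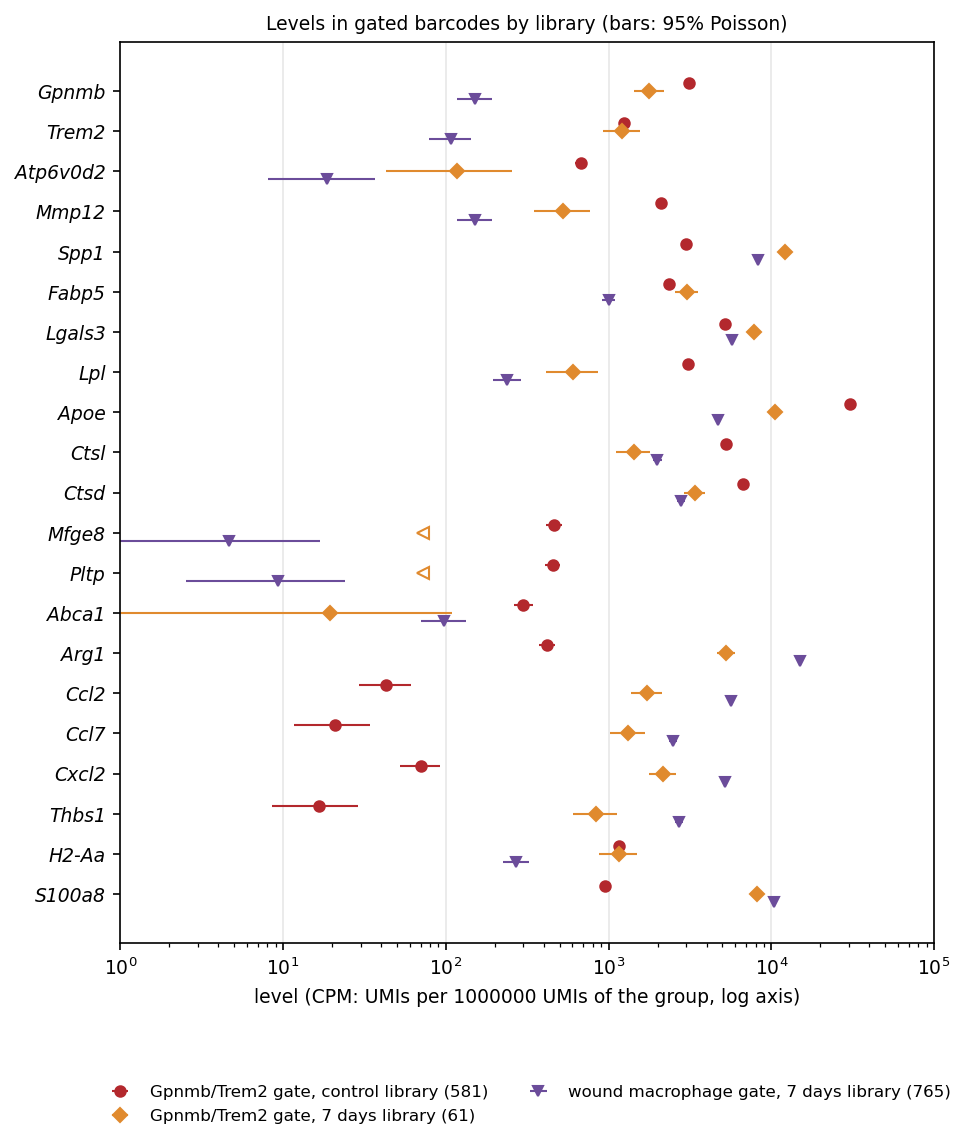
Level of 21 genes (CPM, log axis) in gated macrophages of the libraries labelled control and 7 days and in wound macrophage gate barcodes of the library labelled 7 days, with 95% Poisson intervals; open triangles mark the upper limit where a group had 0 UMIs. Trem2 and H2-Aa lie together in both groups of gated macrophages, Lpl, Apoe and Ctsl lie higher in those labelled control, and Arg1, Ccl2 and Thbs1 lie between the control and the wound gate values.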

How the data were processed

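Drop-seq libraries of 3 pooled livers each were read as deposited counts. According to the file headers and the methods, the authors aligned the reads with STAR and made a table of UMI counts with the DigitalExpression program of Drop-seq, deposited without normalization. The submitters' processing notes name STAR 2.5.2a and the human build hg19, although the 19091 gene symbols are mouse symbols, so that no coordinates were taken from the files. The annotation is not given in the sources used here. The headers name a minimum of 200 genes per barcode, but the files hold barcodes with fewer, and barcodes with at least 200 genes were kept.

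UMIs were summed over the barcodes of each gate and library (Python 3.11.15, numpy 2.4.6, scipy 1.17.1, pandas 2.3.3) and divided by the total UMIs of the same barcodes. The members and the gene lists were chosen with earlier results of these data known. Named genes were the gate genes, at most 6 per list with the most UMIs in gated macrophages and any past 2-fold that a sentence is about, and in each comparison the 10 largest and 10 smallest ratios among genes with at least 50 UMIs on both sides together, without gate and mitochondrial genes. A gene at 0 UMIs was set to a floor of 3 counts. Chil3 was listed under its older symbol Chi3l3, and 2 list symbols were not found. The planned comparison of the library labelled 1 day with control was not made, since it held 2 gated macrophages and a minimum of 20 barcodes was asked for. Thinning used seed 1. The contrast was tested on simulated data. Motifs were read from RefSeq promoter sequences of build GRCm38.p6, matched by symbol, in the 250 bases before each start. Atp6v0d2 had no entry. Alternatives were other thresholds of the gate, 500 genes per barcode, no mitochondrial genes, per-cell means, 20 UMIs per gene, and no barcodes with at least 2 markers of another cell type list. No doublet caller was run.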

Additional observations from a re-analysis of the deposited data

Results flagged for a closer look

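In 5 genes the gated macrophages lay on opposite sides of the Kupffer gate barcodes in the libraries labelled control and 7 days, past 2-fold in both. The lipase genes Lpl (log2 ratio 1.96 in the library labelled control and -1.07 in the library labelled 7 days) and Lipa (1.08 and -1.03) were higher in gated macrophages in the first library and lower in the second. The chemokine Ccl7 (-1.29 and 1.78), the cell cycle inhibitor Cdkn1a (-1.30 and 1.33) and the protease inhibitor Slpi (-1.25 and 1.14) were lower in the first and higher in the second. The interval of each ratio left out 1, but with 1 library per condition the difference between the libraries was not tested. Kupffer gate barcodes held Ccl7 at 50.7 CPM and Slpi at 91.8 CPM in the library labelled control, and at 382.5 and 442.9 CPM in the library labelled 7 days, so that the reference group differed between the libraries as well.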

How the results depend on the processing

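No paired analysis was possible because each condition had 1 library. Of the values that answer a comparison, 44 stayed within their interval or within 1.5 times under an alternative and 45 moved. The share of gated macrophages in the libraries labelled control, 1 day and 7 days was 15.8%, 0.584% and 10.3% with 1 marker asked for, 2.57%, 0% and 0.0178% with 3, 13.3%, 0% and 3.48% among barcodes with at least 500 genes, and 6.50%, 0% and 0.416% without barcodes with markers of another type, which left only 145 and 481 barcodes in the libraries labelled 1 day and 7 days. It was 6.38% in the library labelled control without the Kupffer condition, 3.91% and 0.529% in the libraries labelled control and 7 days over every deposited barcode, and 2.75% and 0.335% after thinning. Counts of genes past 2-fold followed the number of genes compared. With at least 20 UMIs per gene they were 449 higher and 1224 lower against Kupffer gate barcodes in the library labelled control, 121 and 273 in that labelled 7 days, 231 and 466 against wound gate barcodes, 786 and 558 between the libraries, where the larger count changed from lower to higher genes, and 687 and 909 against monocyte gate barcodes. Without barcodes with markers of another type they were 166 and 402 against Kupffer and 229 and 279 against monocyte gate barcodes in the library labelled control. With at least 500 genes per barcode, 29 genes were higher against Kupffer gate barcodes and 15 higher and 28 lower against wound gate barcodes in the library labelled 7 days. List levels in gated macrophages labelled control were 5.30% for lysosome genes with at least 500 genes, 5.29%, 7.43% and 0.591% for lysosome, lipid-associated and MHC class II genes without barcodes with markers of another type, 6.00%, 8.30% and 0.603% without mitochondrial UMIs, and 5.11% and 0.567% for lysosome and MHC class II genes as means over barcodes. Those labelled 7 days were 5.04% for lipid-associated and 0.431% for MHC class II genes with at least 500 genes. Leaving out barcodes with markers of another type was not run for comparisons in the library labelled 7 days, since 2 gated macrophages remained. Leaving out a replicate was not possible. The library labelled 7 days is limited by 51167 UMIs in gated macrophages.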

Other observations

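Genes of matrix turnover and of growth factors differed in both directions between gated macrophages and Kupffer gate barcodes of the library labelled control. Over all 5544 compared genes 4.85% were higher and 12.1% lower. Of 13 compared matrix genes 4 were higher, the proteases Adam8, Mmp8 (4.63-fold, 2.94 to 7.43) and Mmp19 (3.02-fold, 1.87 to 4.90) and the inhibitor Timp2 (2.48-fold, 2.07 to 2.98), whereas the inhibitors Timp1 (0.417, 0.180 to 0.856) and Timp3 (0.480, 0.307 to 0.725) and the crosslinking enzyme Tgm2 (0.311, 0.238 to 0.400) were lower. Mmp8 is also a neutrophil gene. The 3 lower matrix genes of 13 and 1 lower growth factor gene of 8 are not far from the share over all genes. Of 8 compared growth factor genes and receptors, Pdgfa (3.24-fold, 2.06 to 5.15) and Nrp2 (3.70-fold, 2.52 to 5.50) were higher and Hbegf (0.160, 0.0673 to 0.325) was lower. Osteoclast genes were few, with 5 of 12 compared and Ctsk alone past 2-fold. Acp5, the acid phosphatase used to stain osteoclasts, stayed within 2-fold (1.18, 1.02 to 1.37).

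Immediate early genes, which respond to stimulation within a short time, were higher in the gated macrophages labelled 7 days than in those labelled control in 7 of 9 compared, beside 11.8% higher and 15.7% lower over all genes of that comparison, and Jund was lower on 2 UMIs with an interval that held 1 (0.350, 0.0416 to 1.30). Ier3 stood at 684 CPM against 42.8 CPM and Fos at 644.9 CPM against 234.7 CPM. In the other kept barcodes of the library labelled 7 days Fos was at 629.7 CPM, and in barcodes under 200 genes at 870.4 CPM. Kupffer gate barcodes of that library held Ier3 at 637.5 CPM, near the gated macrophages, and Fos at 322.1 CPM. The part of free RNA in these values was not tested.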
